A study of Mus musculus with 35 samples.

Results

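The transcripts described are 8 genes that mark the noradrenergic identity of sympathetic neurons and neuroblastoma: the transcription factors Phox2a, Hand1, Hand2, Gata2, Gata3, Isl1 and Mycn, and Th, which encodes tyrosine hydroxylase. They were taken by name from a table of 54393 genes. Of the 8, 3 (Phox2a, Hand2 and Gata2) are also among the 9239 genes of the count table and were tested on counts, and the other 5 were tested on RPKM, a level that divides each gene's reads by its length and by the library's depth. The count table holds the genes whose RPKM was above 3 in all 35 libraries, so a gene that fell to 3 or less in any library is outside it.

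The cells were N2a Flp-In rtTA, a mouse neuroblastoma line engineered to take a single doxycycline-inducible cDNA. A pair of lines was used, which carried a FLAG-tagged Chtop cDNA without exon 5 (mEx5) or with exon 5 (pEx5). Chtop is a chromatin-associated, RNA-binding protein linked to mRNA export. The control cells received a pool of non-targeting siRNAs, the knockdown cells a single siRNA against Chtop, and the rescue cells that siRNA plus doxycycline, which induced an siRNA-resistant Chtop cDNA. The medium was changed 24 h after transfection and cells were harvested at 72 h. Poly(A) RNA was sequenced from total lysate (20% of the sample), nuclei and cytoplasm, with 2 samples labelled as biological replicates in each of 17 groups and 1 sample in the cytoplasmic pEx5 control group. Control and knockdown cells were not given doxycycline, so an effect of doxycycline and one of re-expressed Chtop cannot be told apart in the rescue, and an effect of Chtop loss and another effect of its 1 siRNA cannot be told apart in the knockdown.

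In sympathoadrenal development, BMP signals turn on a circuit of transcription factors in neural crest cells. PHOX2A is a paired-type homeodomain protein, HAND1 and HAND2 are basic helix-loop-helix proteins that pair with E proteins, GATA2 and GATA3 are zinc finger proteins, and ISL1 is a LIM homeodomain protein. The circuit drives the enzymes of catecholamine synthesis, of which tyrosine hydroxylase catalyses the rate-limiting step from tyrosine to L-DOPA. In neuroblastoma the same factors form the core of the noradrenergic (adrenergic) cell state, and MYCN, a MYC family oncoprotein that pairs with MAX, is the gene amplified in many aggressive human tumours.

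The sequences shown are the 250 bases before the RefSeq transcription start (GRCm38.p6) of Isl1, Mycn and Th, the members tested on RPKM that passed the knockdown test in at least 1 fraction. They are written 5′ to 3′ on the gene's strand, and capitals mark TGACG, the core of the cAMP response element, on either strand. Isl1 lies at chr13:116309689-116309938 (minus strand), Mycn at chr12:12941837-12942086 (minus strand) and Th at chr7:142899996-142900245 (minus strand).
Isl1: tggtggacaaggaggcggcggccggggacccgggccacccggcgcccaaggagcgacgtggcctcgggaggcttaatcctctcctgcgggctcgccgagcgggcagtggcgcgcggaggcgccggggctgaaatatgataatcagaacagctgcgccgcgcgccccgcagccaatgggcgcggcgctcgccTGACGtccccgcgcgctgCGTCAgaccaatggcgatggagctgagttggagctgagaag
Mycn: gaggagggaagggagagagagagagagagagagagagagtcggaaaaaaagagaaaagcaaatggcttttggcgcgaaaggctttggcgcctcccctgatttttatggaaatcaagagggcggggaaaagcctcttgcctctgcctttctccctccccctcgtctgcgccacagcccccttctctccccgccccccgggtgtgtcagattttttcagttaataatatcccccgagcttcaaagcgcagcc
Th: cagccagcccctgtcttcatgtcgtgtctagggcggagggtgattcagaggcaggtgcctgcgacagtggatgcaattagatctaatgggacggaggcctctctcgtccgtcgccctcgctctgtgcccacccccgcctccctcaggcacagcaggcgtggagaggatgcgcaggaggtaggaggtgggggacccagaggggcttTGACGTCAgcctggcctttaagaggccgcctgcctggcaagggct

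The windows of Isl1 and Th each held 2 matches to TGACG and that of Mycn held none. In Isl1 the matches began 59 and 41 bases before the start. In Th they overlapped, beginning 45 and 42 bases before the start, and together spell TGACGTCA. Of 32817 windows of this length, 17.7% held TGACG. The other motifs were searched on both strands and were in none of the 3 windows. The site of zinc finger factors such as GATA2, AGATAA, was found in 9.99% of all windows. The E-box of Myc proteins, CACGTG, was found in 6.02%, and the E-box bound by HAND proteins with E proteins, CATCTG, in 14.5%. The homeodomain core TAATTA was found in 4.85% and the core promoter element TATAAA in 12.4%. A window was found for 7 of the 8 genes. The Hand2 window, at chr8:57320733-57320982 (plus strand), held the HAND E-box, the homeodomain core, the zinc finger site and TGACG once each, with the homeodomain core and the zinc finger site overlapping. The windows of Phox2a, Gata3 and Gata2 (2 start sites) held none of the 6 motifs. A match describes letters in the window and shows no binding.

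Count totals ran from 20652832 to 36102129 in total lysate, from 11681781 to 28705620 in nuclei and from 19478702 to 40105458 in cytoplasm. For genes with both units, 1 RPKM stood for a median of 51.1 counts in total lysate (5th to 95th percentile 11.1 to 142), 46.1 in nuclei and 52.6 in cytoplasm. CPM values are counts relative to the library's own total, without the TMM scaling used in the edgeR tests. Chtop itself, the targeted gene, fell in total lysate from 125 to 139 CPM in controls to 19.8 to 34.7 in knockdown. It stood at 186 to 282 in rescue. In nuclei it fell from 94.9 to 129 CPM to 57.3 to 70.6, and in cytoplasm from 137 to 148 CPM to 17.7 to 31.2. In each fraction the 3 conditions did not overlap for Chtop, as the labels of the 35 libraries have it. The samples are bulk RNA, so fewer cells of a kind and less RNA per cell cannot be told apart.

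The members differed widely in level. In control total lysate, mean RPKM was 233 ± 24.0 (SD, n = 4) for Phox2a and 228 ± 12.7 for Hand2, which is above 94.1% and 93.9% of the count table genes. Gata2 followed at 69.9 ± 6.89, Mycn at 6.62 ± 1.71, Isl1 at 3.63 ± 2.64, Gata3 at 2.83 ± 0.944, Th at 0.800 ± 0.110 and Hand1 at 0.168 ± 0.0918. In this order the ranges of Phox2a and Hand2 overlapped, as did those of Mycn and Isl1 and of Isl1 and Gata3, and the other neighbours did not overlap. For Isl1 and Gata3 these means span 2 lines with separate control values (Isl1 at 4.68 and 6.89 against 1.56 and 1.40 RPKM, Gata3 at 3.56 and 3.71 against 1.88 and 2.15).

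The label was checked against other genes of the lineage. Slc18a2, the vesicular monoamine transporter, had a mean of 56.1 RPKM in control total lysate and Gch1, which makes the tyrosine hydroxylase cofactor, 121. The enzymes that carry the pathway were low, with Ddc (DOPA decarboxylase) at 5.66 and Dbh (dopamine beta-hydroxylase, which makes noradrenaline) at 2.31. Slc6a2, the noradrenaline transporter, was listed at 0 in 33 of 35 libraries. Phox2a, Hand2 and Gata2 were thus abundant, while Th, Dbh and Slc6a2 were low or listed at 0. Chat, the defining cholinergic enzyme, did not exceed 0.17 RPKM in any library.

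**Figure D1:**
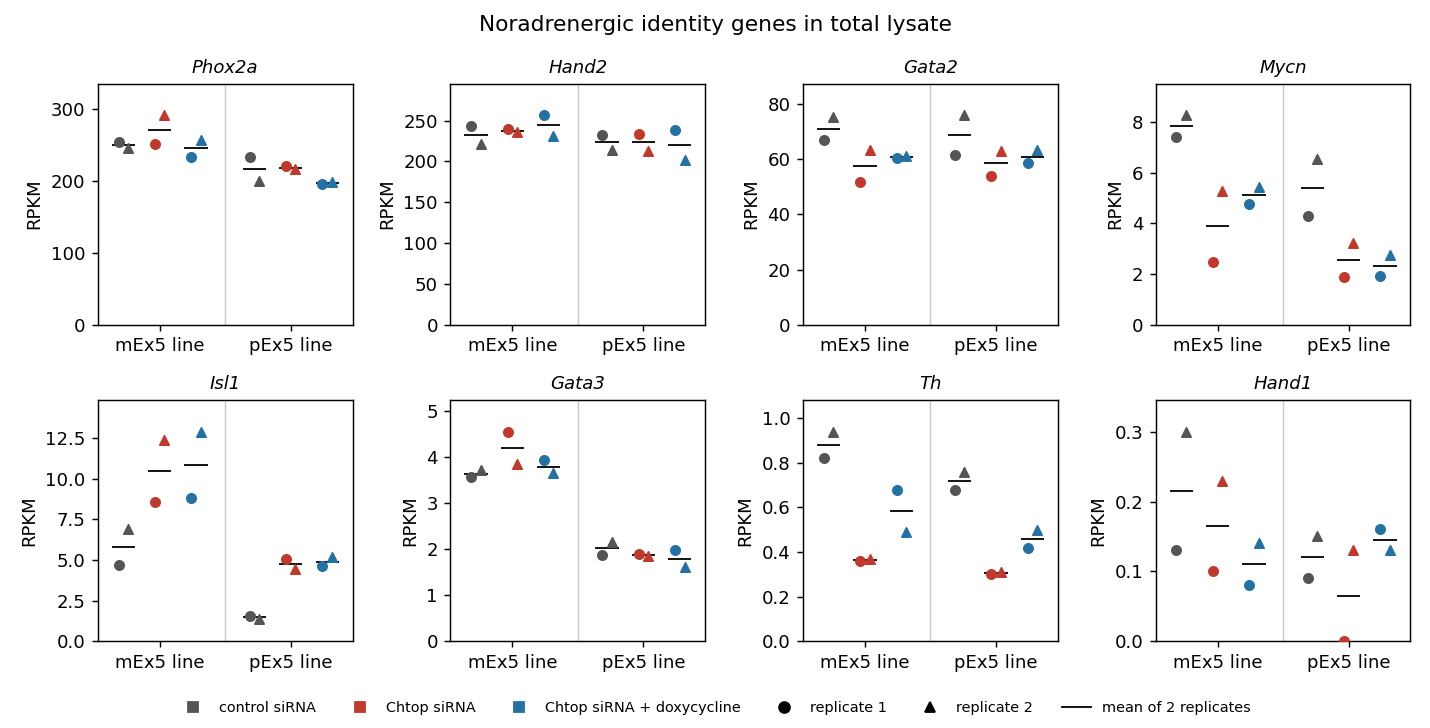
RPKM of the 8 genes in the 12 total lysate libraries, by line and condition; points are libraries, bars the means of 2 replicates, and each panel has its own axis from 0. Isl1 is higher in knockdown and rescue than in control within each line, Mycn and Th are lower in knockdown, and Isl1 and Gata3 are lower in the pEx5 line.

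Isl1 rose after knockdown in every fraction. In total lysate of the mEx5 line its RPKM was 4.68 and 6.89 in control, 8.60 and 12.4 in knockdown and 8.81 and 12.9 in rescue. In the pEx5 line it was 1.56 and 1.40 in control, 5.05 and 4.43 in knockdown and 4.64 and 5.16 in rescue. Within each line the knockdown and rescue libraries all lay above the controls, and knockdown and rescue overlapped.

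The other fractions gave the same picture. In nuclei of the mEx5 line Isl1 was at 3.75 and 6.14 RPKM in control, 9.65 and 11.5 in knockdown and 9.32 and 12.6 in rescue. In nuclei of the pEx5 line it was at 1.40 and 1.44, then 3.98 and 4.18, then 3.74 and 4.61. Again no knockdown or rescue library of a line reached down to its controls. In cytoplasm the mEx5 line had 5.25 and 6.80 in control, 11.8 and 14.9 in knockdown and 10.5 and 14.6 in rescue. The single pEx5 control had 1.60, against 5.64 and 5.54 in knockdown and 4.64 and 5.70 in rescue.

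Averaged over the lines, the log2 fold change of Isl1 on the log2(RPKM + 0.1) scale was 1.23 ± 0.175 (SE) in total lysate (2.35-fold, adjusted p = 0.001, limma), 1.29 ± 0.172 in nuclei (adjusted p = 0.0016) and 1.44 ± 0.161 in cytoplasm (adjusted p = 0.00055). By line, the increase in total lysate was 1.81-fold in mEx5 and 3.06-fold in pEx5. The test of that difference between lines gave 0.76 ± 0.351 (limma, adjusted p = 1), and it was not called in nuclei (adjusted p = 0.96) or cytoplasm (adjusted p = 1).

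Mycn fell after knockdown in every fraction. In total lysate of the mEx5 line it was at 7.40 and 8.27 RPKM in control, 2.48 and 5.29 in knockdown and 4.75 and 5.45 in rescue. In the pEx5 line it was at 4.29 and 6.52 in control, 1.87 and 3.24 in knockdown and 1.92 and 2.75 in rescue. All knockdown and rescue libraries lay below the controls of their line, although the pEx5 controls overlapped the mEx5 knockdown.

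In nuclei Mycn went from 6.68 and 9.34 RPKM in the mEx5 control to 2.26 and 4.75 in knockdown, with 3.86 and 5.22 in rescue. In the pEx5 nuclei it went from 3.27 and 5.48 to 1.27 and 2.65, with 2.63 and 2.58 in rescue. Within each line the controls again lay above the knockdown and rescue libraries, and knockdown and rescue overlapped. In cytoplasm the mEx5 values were 10.1 and 12 in control, 3.27 and 6.31 in knockdown and 6.44 and 6.66 in rescue. The pEx5 values there were 7.64 in the single control, 1.86 and 3.91 in knockdown and 3.82 and 4.20 in rescue, and in this fraction every control library of both lines lay above every knockdown and rescue library.

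The log2 fold change of Mycn with knockdown was -1.08 ± 0.269 in total lysate (adjusted p = 0.016), -1.20 ± 0.308 in nuclei (adjusted p = 0.024) and -1.36 ± 0.292 in cytoplasm (adjusted p = 0.011). The call in total lysate was lost when any 1 of 3 libraries was left out (mEx5 control replicate 2, pEx5 control replicate 2 or pEx5 knockdown replicate 1; log2 fold changes -1.04, -0.93 and -0.89, adjusted p = 0.053, 0.059 and 0.057). The call in nuclei was lost without any 1 of 4 (mEx5 control replicate 2, mEx5 knockdown replicate 1, pEx5 control replicate 2 or pEx5 knockdown replicate 1; -1.08, -0.94, -1.02 and -0.95, adjusted p = 0.078, 0.072, 0.081 and 0.078). Replicate 1 was the lower of the 2 in every control and knockdown group that has both, and the fits with a library left out had no replicate block.

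Th also fell, at a low level. In total lysate of the mEx5 line its RPKM was 0.82 and 0.94 in control, 0.36 and 0.37 in knockdown and 0.68 and 0.49 in rescue. In the pEx5 line it was 0.68 and 0.76 in control, 0.30 and 0.31 in knockdown and 0.42 and 0.50 in rescue. The 4 knockdown libraries lay below all 4 rescue libraries, and within each line the rescue libraries lay below both controls. The knockdown log2 fold change in total lysate was -1.04 ± 0.182 (2.06-fold lower, adjusted p = 0.0029).

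In nuclei Th was at 0.76 and 0.85 RPKM in the mEx5 control, 0.46 and 0.44 in knockdown and 0.78 and 0.69 in rescue. In pEx5 nuclei it was at 0.60 and 0.87, 0.50 and 0.70, and 0.56 and 0.61, so the groups overlapped there. The nuclear fold change did not pass the test (-0.48 ± 0.198, adjusted p = 0.12). In cytoplasm the mEx5 line had 0.58 and 0.71 in control, 0.33 and 0.45 in knockdown and 0.59 and 0.40 in rescue. The pEx5 line had 0.86, then 0.03 and 0.31, then 0.46 and 0.40, and the library at 0.03 is the lowest of all 35 for Th. The cytoplasmic log2 fold change was -1.33 ± 0.401 (adjusted p = 0.037), and -0.92 without the library at 0.03 (adjusted p = 0.038). That call was lost without any 1 of the 4 mEx5 control and knockdown libraries (-1.42 to -1.24, adjusted p = 0.059 to 0.097).

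**Figure D2:**
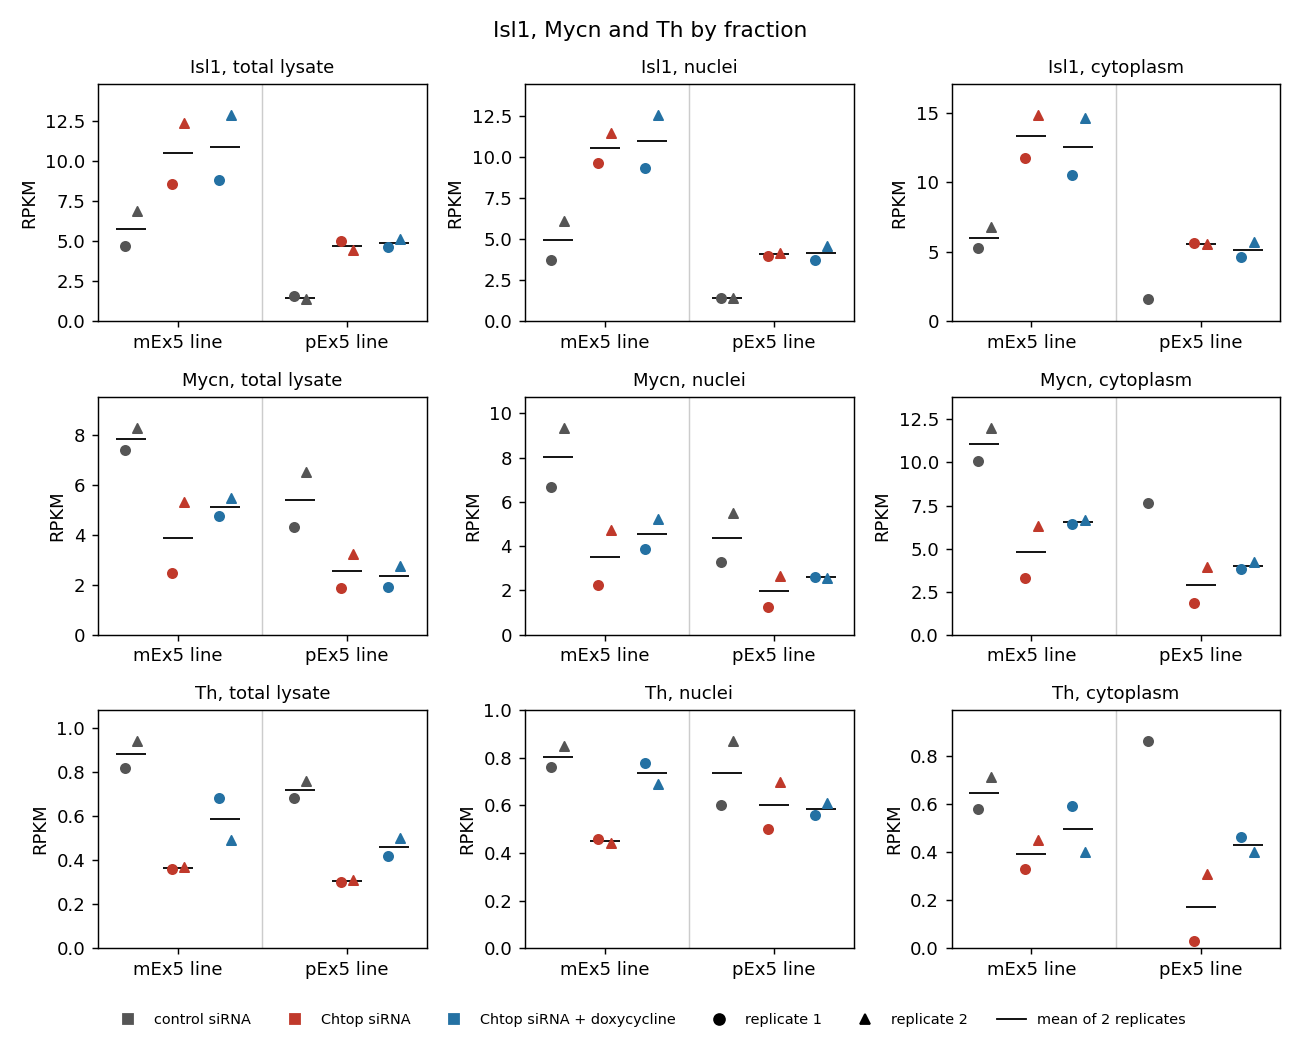
RPKM of Isl1, Mycn and Th in each library of the 3 fractions, by line and condition; bars are means of 2 replicates and the pEx5 cytoplasmic control has 1 library. Isl1 is raised to the same range in knockdown and rescue, Mycn is lowest in knockdown replicate 1 of each line, and Th in knockdown is lower than in rescue in total lysate.

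Gata2, tested on counts, was lower in knockdown in nuclei, where mEx5 went from 209 and 259 CPM to 132 and 191 and pEx5 from 197 and 274 to 124 and 213. In total lysate mEx5 went from 154 and 178 CPM to 125 and 158, and pEx5 from 146 and 180 to 132 and 160. Replicate 1 was the lower in each of these pairs, and in both fractions knockdown was below the control of the same line and replicate in 4 of 4 pairs. The unblocked edgeR test did not call these differences (log2 fold change -0.21 ± 0.0933, adjusted p = 0.090 in total lysate; -0.47 ± 0.204, adjusted p = 0.10 in nuclei).

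Replicate numbers paired the libraries in total lysate and nuclei. With replicate number as a block, Gata2 fell in total lysate (-0.21, adjusted p = 0.0019) and in nuclei (-0.49, adjusted p = 7.0e-06). The block raised the share of all genes called to 62.9% in total lysate and 55.4% in nuclei. In cytoplasm Gata2 was at 180 to 191 CPM in control and 164 to 189 in knockdown (-0.12 ± 0.0876, adjusted p = 0.31). Gata3 was not called, with RPKM of 3.56 and 3.71 in the mEx5 control against 4.55 and 3.85 in knockdown, and 1.88 and 2.15 in the pEx5 control against 1.89 and 1.85 (total lysate, 0.05 ± 0.112, adjusted p = 0.78). Its changes in nuclei (0.17 ± 0.124) and cytoplasm (0.11 ± 0.108) were not called either.

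Phox2a and Hand2, the most abundant members, were within 0.25 of 0 on the log2 scale in each averaged knockdown contrast. Hand2 in cytoplasm was at 563, 582 and 616 CPM in the 3 controls and at 560, 542, 475 and 522 in knockdown, so every knockdown library lay below every control. That difference passed the test (-0.23 ± 0.0728, 1.17-fold lower, adjusted p = 0.024). It was lost when libraries were scaled by their totals alone (-0.18, adjusted p = 0.068) and without mEx5 control replicate 2 or either mEx5 knockdown library (-0.24 to -0.21, adjusted p = 0.053 to 0.081). In total lysate Hand2 was at 546 to 602 CPM in control and 581 to 631 in knockdown (0.07 ± 0.078, adjusted p = 0.46), and in nuclei at 504 to 564 and 419 to 577 (-0.03 ± 0.0976, adjusted p = 0.87).

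Hand2 shares its locus with an antisense transcript. Hand2os1 (chr8:57281117-57324233, minus strand) overlaps 3251 bases of Hand2 (chr8:57320983-57324633, plus strand), and no source used here states whether counting was strand-specific, so reads of the pair cannot be told apart where they overlap. Hand2os1 rose with knockdown in nuclei (0.34 ± 0.083, adjusted p = 0.011) and at the threshold in total lysate (0.30 ± 0.109, adjusted p = 0.050), but not in cytoplasm (0.13 ± 0.111, adjusted p = 0.38). The last 95 bases of Phox2a (chr7:101818313-101822726, plus strand) overlap Inppl1 on the other strand, and Gata3 (chr2:9857078-9890034, minus strand) overlaps 4930412O13Rik over 2670 bases, whose mean was 2.18 RPKM over the 35 libraries.

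Phox2a libraries were ordered differently in the 2 lines. In nuclei of mEx5 it was at 166 and 184 CPM in control and 220 and 255 in knockdown, and in nuclei of pEx5 at 180 and 169 in control and 125 and 166 in knockdown. In cytoplasm mEx5 had 330 and 378 in control and 411 and 417 in knockdown, and pEx5 had 350 in its control and 293 and 326 in knockdown. In both fractions the knockdown libraries lay above the controls in mEx5 and below them in pEx5. The test of the difference between lines did not pass the adjustment over all genes (edgeR, nuclei -0.72 ± 0.249, adjusted p = 0.72; cytoplasm -0.38 ± 0.159, adjusted p = 1). In total lysate the direction was upward in both (mEx5 0.18 ± 0.104; pEx5 0.06 ± 0.104), and the averaged contrast was not called (0.12 ± 0.0735, adjusted p = 0.20).

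Hand1 was barely detected, at 0 to 0.60 RPKM over the 35 libraries. In nuclei it was at 0.31 and 0.60 in the mEx5 control against 0.15 and 0.16 in knockdown, and at 0.48 and 0.14 in the pEx5 control against 0.03 and 0.11. The knockdown libraries lay below the controls within each line. The difference just missed the threshold (-1.12 ± 0.355, adjusted p = 0.052) and passed it with the replicate block (adjusted p = 0.048, with 34.0% of all genes called in that fit). In total lysate (-0.38 ± 0.353) the groups overlapped within each line. In cytoplasm (-0.08 ± 0.342) they overlapped in mEx5, and the pEx5 knockdown libraries, at 0.10 and 0.09, lay below the single control at 0.14.

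Counting the members, knockdown called 0 of the 3 tested on counts in total lysate, 0 in nuclei and 1 in cytoplasm, where 43.9%, 31.4% and 40.7% of all genes in the count table were called. Of the 5 tested on RPKM, 3, 2 and 3 were called, where 29.6%, 22.6% and 27.8% of the genes tested on RPKM were called. The median log2 fold change of the 3 was 0.07, -0.03 and -0.12 and that of the 5 was -0.38, -0.48 and -0.08, against medians over all genes between 0.00 and 0.04. With so few members no share here can be set apart from the background.

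**Figure D3:**
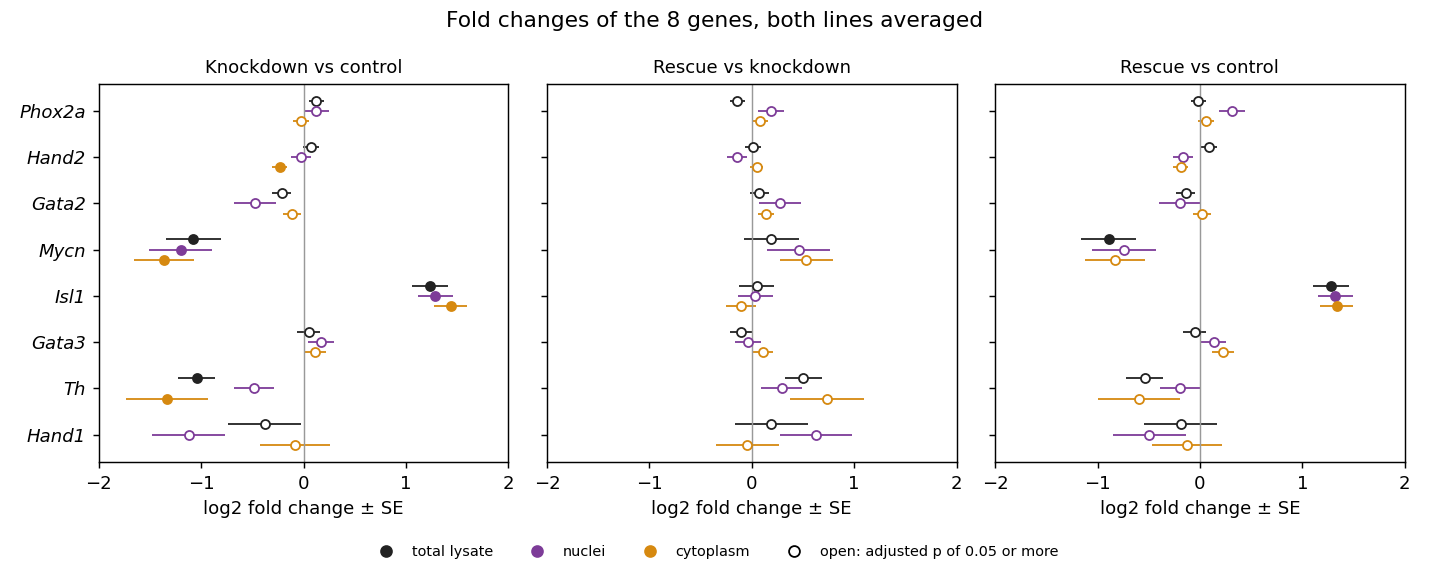
Log2 fold changes ± SE of the 8 genes with both lines averaged, by fraction; filled points passed an adjusted p of 0.05 (edgeR on counts for Phox2a, Hand2 and Gata2, limma on log2(RPKM + 0.1) for the others). Isl1 lies above 1 in knockdown and in rescue against control and near 0 in rescue against knockdown, while Mycn and Th lie below 0 in knockdown and above 0, uncalled, in rescue against knockdown.

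Re-expression of Chtop called none of the 8 members against knockdown in any fraction. Few genes of any kind were called in this comparison, 0.0217%, 0.0108% and 0.0433% of genes on counts and 0.0696%, 0.0797% and 0.0542% on RPKM in total lysate, nuclei and cytoplasm. The differences of Isl1 from knockdown were 0.05 ± 0.175, 0.03 ± 0.172 and -0.10 ± 0.144. Th had the largest upward estimates in total lysate and cytoplasm (limma, 0.50 ± 0.182, adjusted p = 0.73, and 0.73 ± 0.358, adjusted p = 0.61), with 0.29 ± 0.198 in nuclei. The largest in nuclei was that of Hand1 (0.63), whose rescue libraries lay above the knockdown ones within each line, at 0.30 RPKM or less. Mycn was at 0.19 ± 0.269, 0.46 ± 0.308 and 0.53 ± 0.262. With the replicate block Gata2 rose in nuclei (0.30, adjusted p = 0.015, with 6.84% of all genes called in that fit), and rescue was above knockdown in 4 of 4 pairs of line and replicate (176 against 132, 218 against 191, 179 against 124 and 247 against 213 CPM).

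Against control, Isl1 was higher in rescue cells. This comparison shares its control libraries with the knockdown comparison and its rescue libraries with the comparison of rescue and knockdown. The log2 difference of Isl1 was 1.28 ± 0.175 in total lysate (adjusted p = 0.0012), 1.32 ± 0.172 in nuclei (adjusted p = 0.0025) and 1.33 ± 0.161 in cytoplasm (adjusted p = 0.0011). Mycn was lower in total lysate (-0.89 ± 0.269, adjusted p = 0.041), and that call was lost when any 1 of 7 of the 8 control and rescue libraries was left out (-1.01 to -0.74, adjusted p = 0.053 to 0.13) and with no filter on low RPKM (adjusted p = 0.062). In nuclei it was at -0.74 ± 0.308 (adjusted p = 0.14, and 0.015 with the replicate block, with 28.9% of all genes called in that fit) and in cytoplasm at -0.83 ± 0.292 (adjusted p = 0.080). Th was at -0.54 ± 0.182 in total lysate (adjusted p = 0.060). These counts were 2, 1 and 1 of 5 members on RPKM, where 24.3%, 17.1% and 22.7% of genes were called, and 0 of 3 on counts, where 37.3%, 23.7% and 35.7% were called.

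With the replicate block 2 further members differed between rescue and control in total lysate and nuclei. Gata2 was lower in total lysate (-0.13, adjusted p = 0.039, with 57.9% of all genes called) and in nuclei (-0.19, adjusted p = 0.026, with 49.8% called). Phox2a was higher in nuclei (0.31, adjusted p = 0.0064), where the mEx5 rescue libraries were at 211 and 296 CPM against 166 and 184 in control and the pEx5 ones at 194 and 178 against 180 and 169. Without the block these gave adjusted p of 0.27, 0.53 and 0.096 (edgeR). In cytoplasm Hand2 and Mycn also passed with the block, and their values are given in the closing section.

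The exon 5 comparison asked whether the rescue effect differed between the isoforms, as the change from knockdown to rescue in pEx5 minus that in mEx5. No member was called. On counts 0% of genes passed edgeR's test in any fraction (98, 26 and 288 genes had an unadjusted p under 0.05; DESeq2 called 0, 0 and 7), and on RPKM 0.0547%, 0.0620% and 0.0271% passed limma's. For Isl1 the difference was within 0.03 of 0 in each fraction. The members' differences ranged from -0.05 to 0.27 on counts and from -0.62 to 1.00 on RPKM. The interval of 2 SE either side of the Mycn difference in total lysate, -1.65 to 0.50, and that of Th in cytoplasm, -0.51 to 2.36, include changes as large as those with knockdown.

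The 2 lines differed before any induction. Over the control and knockdown libraries, none of which received doxycycline, Isl1 was lower in pEx5 by 1.49 ± 0.175 on the log2 scale in total lysate (log2 -1.49, 2.81-fold lower, adjusted p = 0.0065), 1.52 ± 0.172 in nuclei (log2 -1.52, adjusted p = 0.011) and 1.53 ± 0.161 in cytoplasm (log2 -1.53, adjusted p = 0.0073). Gata3 was also lower, with log2 differences of -0.97 ± 0.112 (1.96-fold lower, adjusted p = 0.0061), -0.91 ± 0.124 (adjusted p = 0.023) and -0.83 ± 0.108 (adjusted p = 0.018). Every pEx5 library lay below every mEx5 library for Gata3 in all 3 fractions (total lysate 1.85 to 2.15 RPKM against 3.56 to 4.55). For Isl1 the lines overlapped over these conditions, because the pEx5 knockdown libraries reached the mEx5 controls.

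These 2 of 5 members on RPKM compare with 1.04%, 0.465% and 0.747% of all genes called, and 0 of 3 on counts with 1.05%, 0.40% and 0.725%. With the replicate block Phox2a was lower in pEx5 in total lysate (-0.26, adjusted p = 0.011, with 14.5% of all genes called) and in nuclei (-0.35, adjusted p = 0.012, with 12.8% called), and Hand2 in nuclei (-0.25, adjusted p = 0.038). Mycn in nuclei also passed with the block (-0.84, adjusted p = 0.049, with 2.70% of genes called). In nuclei the unblocked call of Gata3 was lost without any 1 of the 8 libraries (-0.96 to -0.85, adjusted p = 0.065 to 0.12), and that of Isl1 without mEx5 knockdown replicate 2, pEx5 control replicate 1 or pEx5 knockdown replicate 2 (-1.54 to -1.46, adjusted p = 0.052 to 0.064). In cytoplasm the Gata3 call was lost without mEx5 control replicate 2 or either mEx5 knockdown library (-0.86 to -0.81, adjusted p = 0.062 to 0.068). No doxycycline had been given to these cells, and the cDNA's isoform and any other difference between the lines cannot be told apart.

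**Figure D4:**
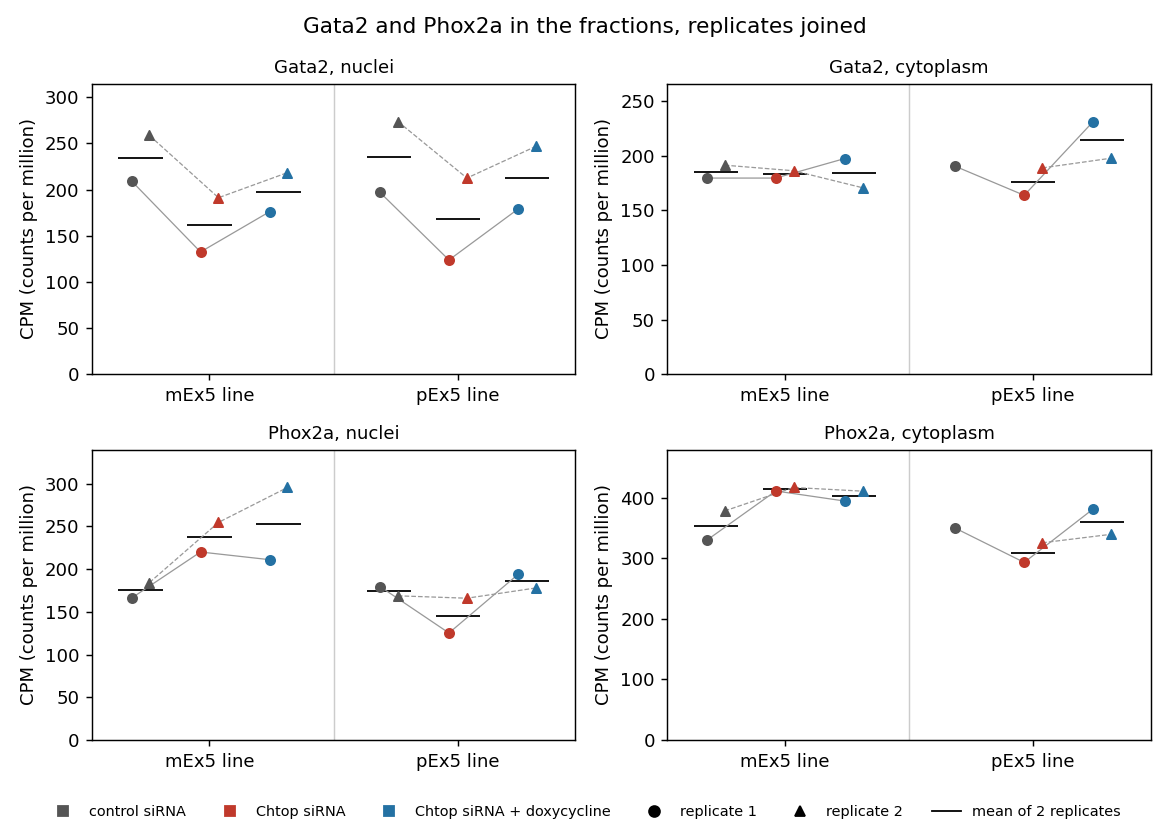
CPM of Gata2 and Phox2a in nuclei and cytoplasm, with grey lines joining the libraries of 1 replicate number within a line and bars at the means of 2. Gata2 falls from control to knockdown in nuclei along each of the 4 joined series. For Phox2a the knockdown libraries lie above the controls in the mEx5 line and below them in the pEx5 line.

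Between compartments, Phox2a was the member with a called difference. In control cells it was at 166 to 184 CPM in nuclei and 330 to 378 in cytoplasm, with no overlap, a log2 nuclear to cytoplasmic ratio of -1.0 ± 0.118 (adjusted p = 2.0e-06). Gata2 (0.33 ± 0.188, adjusted p = 0.13) and Hand2 (-0.15 ± 0.093, adjusted p = 0.17) were not called. Of all genes 69.9% were called in this comparison. The authors' deposited table gives -0.31 for Phox2a, 0.58 for Gata2 and 0.30 for Hand2 in control cells, so the sign for Hand2 differs between that table and the edgeR fit, and the cause of the gap was not tested. The change of the ratio with knockdown called 0 of 3 members (5.14% of all genes; Phox2a 0.16 ± 0.161, Gata2 -0.34 ± 0.251, Hand2 0.22 ± 0.125), and the change with rescue 0 of 3 (0.0216% of all genes). The authors' deposited table puts the knockdown changes at 0.20, -0.33 and 0.11 in that order. It marks Hand2 and Gata2, and not Phox2a, as overlapped by Chtop iCLIP (crosslinking of the protein to RNA), as it does 48.5% of its 9239 genes.

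For the members without counts the ratio of nuclear to cytoplasmic RPKM was taken in each of 11 cultures and given relative to the median of the count table genes, as a description. Gata3 was above that median in all 11 cultures (log2 0.03 to 0.55) and Isl1 in 10 (-0.10 to 0.32). Th had a median of 0.85 and Hand1 of 1.07, both at levels where few reads set the ratio. Mycn lay on either side (-0.77 to 0.16). On the same scale Phox2a was below the median in all 11 (-1.12 to -0.38).

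**Figure D5:**
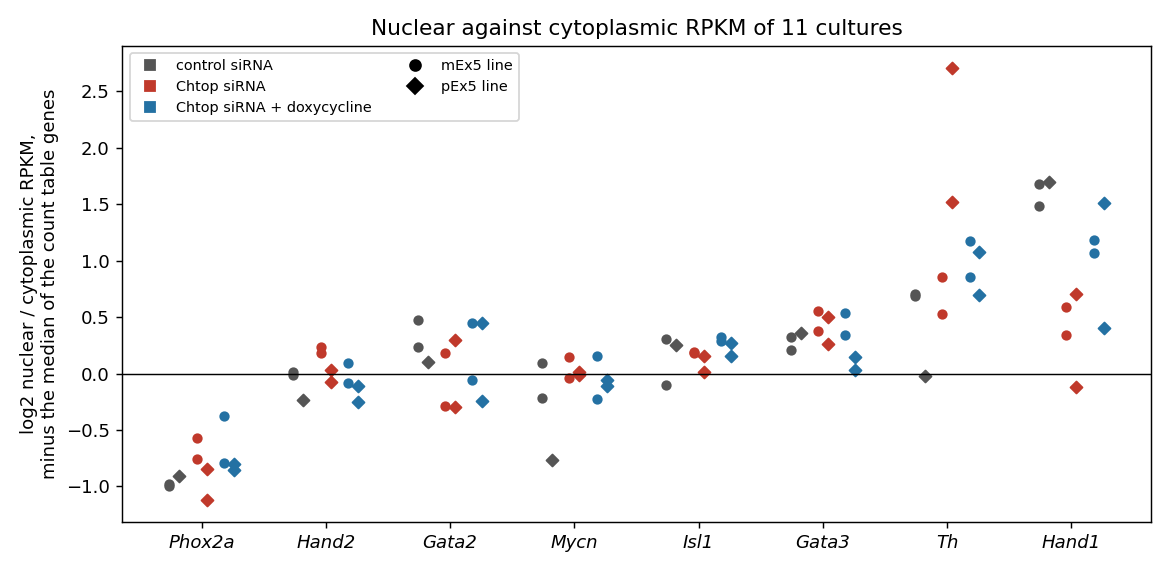
Log2 ratio of nuclear to cytoplasmic RPKM (each + 0.1) minus the median over the count table genes, for the 8 genes in 11 cultures, by condition and line. Phox2a lies below 0 in all 11 cultures and Gata3 above 0 in all 11, and Th has 1 point at 2.71, the pEx5 knockdown culture whose cytoplasmic Th was 0.03 RPKM.

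The profiles of the members tested on counts were not alike. For this, log2 CPM was TMM-scaled and fraction means were removed. Pearson's r over the 35 libraries was 0.57 between Phox2a and Hand2, 0.05 between Phox2a and Gata2 and -0.05 between Hand2 and Gata2. The genes most like Phox2a were Tbx2 (r = 0.81), Pcbp4 (0.80) and Prcc (0.79). Those most like Hand2 were Srsf9, Rnasek (both 0.76) and Rnf5 (0.75). Those most like Gata2 were Nr4a1 (0.92), Slc4a8 and Pcnx2 (both 0.89). The points share libraries and depth, and differences between replicate numbers were not removed, so these are descriptions. Gata2 was lower in replicate 1 in each control and knockdown group of total lysate and nuclei.

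Other genes of the same biology were counted from fixed lists, each tested on counts where possible and otherwise on RPKM. Their counts are to be read against the shares of all genes called after knockdown, 43.9%, 31.4% and 40.7% on counts and 29.6%, 22.6% and 27.8% on RPKM in total lysate, nuclei and cytoplasm. Of the other circuit factors, 9 were tested on counts after knockdown in total lysate, of which 4 rose and 1 fell (median 0.26, with 43.9% of all genes called). Lmo1, a LIM-only cofactor (0.59 ± 0.155), and Insm1, a zinc finger factor of neuroendocrine precursors (0.54 ± 0.0756), were among those that rose. Tbx2, a T-box factor of the circuit, rose in all 3 fractions (0.48, 0.53 and 0.40). In nuclei and cytoplasm 2 rose and 1 fell in each. Of 4 tested on RPKM, 1 rose in total lysate and none passed the test in the other fractions.

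Catecholamine pathway genes were called in both directions. In total lysate 1 of 8 genes on counts rose and 3 fell (43.9% of all genes were called), and of 4 on RPKM 1 rose and 1 fell (29.6% of all genes), and the same counts held in nuclei (8 and 5 tested) and cytoplasm (8 and 4 tested). Dbh fell, with log2 changes of -1.73 ± 0.191, -1.34 ± 0.386 and -1.60 ± 0.279, as Th did in total lysate and cytoplasm. Slc18a2 fell (-1.36 ± 0.116, -1.24 ± 0.143 and -1.39 ± 0.119) and so did Gch1 (-0.85, -0.99 and -0.91). Ddc rose (0.90 ± 0.156, 1.53 ± 0.162 and 0.77 ± 0.138).

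Among receptors of the lineage, 1 of 6 rose and 3 fell on counts in total lysate (median -0.44, with 43.9% of all genes called), and 3 of 7 fell on RPKM (29.6% of all genes called). Ngfr, the low-affinity neurotrophin receptor, fell (-1.18 ± 0.139), as did Gfra1, a GDNF co-receptor (-1.42 ± 0.282), and Sstr2, a somatostatin receptor (-1.10 ± 0.155). In nuclei 1 rose and 4 fell on counts and 2 of 7 fell on RPKM, and in cytoplasm 1 rose and 2 fell and 2 of 6 fell. Ntrk3, the neurotrophin-3 receptor, rose in nuclei (0.96 ± 0.116) and in the other fractions (0.64 and 0.73).

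Of 12 protein partners of the members on counts, 8 rose and 2 fell in total lysate (median 0.29), 6 and 2 in nuclei, and 7 and 2 in cytoplasm, where 43.9%, 31.4% and 40.7% of all genes were called. Ldb1, the adaptor that joins LIM homeodomain and GATA complexes, rose (0.41 ± 0.0638, 0.45 ± 0.0798 and 0.33 ± 0.07). The E proteins Tcf3 (0.37, 0.48 and 0.41) and, in total lysate and cytoplasm, Tcf12 (0.30 and 0.33) rose. Ssbp2, an LDB1-binding protein, fell in total lysate and cytoplasm (-0.89 and -1.0), and Lmo2 in all fractions (-0.88, -0.93 and -1.02). Lmo3, the 1 partner tested on RPKM, rose (1.09, 0.72 and 0.71).

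In the Myc network 6 of 14 rose and 2 fell on counts in total lysate (median 0.12), with 4 higher and 2 lower in nuclei and 6 higher and 2 lower in cytoplasm. The shares of all genes called were again 43.9%, 31.4% and 40.7%. Mxd3, a MAX partner of the Mad family, rose (0.72 ± 0.0628, 1.00 ± 0.105 and 0.59 ± 0.107), and Max itself rose in total lysate and cytoplasm (0.52 and 0.43). Myc, the abundant family member at a mean of 104 RPKM in control total lysate against 6.62 for Mycn, fell in nuclei (-0.28 ± 0.096, adjusted p = 0.048). On RPKM, 1 of 2 (Mxd1) fell in total lysate and 1 of 2 (Mycl, 0.77 ± 0.197) rose in cytoplasm. In the rescue against knockdown contrasts no gene of any of these lists passed the test in any fraction.

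Nuclear against cytoplasmic ratios in control cells were called for 6 of 9 circuit factors (3 nuclear, 3 cytoplasmic), 6 of 8 catecholamine genes (1 and 5), 5 of 6 receptors (3 and 2), 5 of 12 partners (4 and 1) and 10 of 14 Myc network genes (8 and 2), where 69.9% of all genes were called. Klf7 (0.80 ± 0.0801), a Krüppel-like factor, was the most nuclear of the circuit factors and Hey1 (-0.68 ± 0.106), a Notch target repressor, the most cytoplasmic. Ldb1 (1.31 ± 0.08) and Ntrk3 (1.41 ± 0.122) led their lists.

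Markers of other cell states were counted in the same way. Of the mesenchymal list, 1 of 5 genes on counts fell in total lysate, Vim (-0.95 ± 0.0656), and 1 of 9 on RPKM rose, Snai2 (1.08 ± 0.275), where 43.9% and 29.6% of all genes were called. In nuclei 1 of 5 fell on counts, and 1 of 9 rose and 2 fell on RPKM. In cytoplasm 1 of 5 rose and 1 fell on counts, and 1 of 8 fell on RPKM. The list's summed RPKM, most of it from Vim, was 2300 to 3250 in control total lysate and 1240 to 1750 in knockdown, 925 to 1650 and 543 to 758 in nuclei, and 2250 to 3030 and 1160 to 1760 in cytoplasm. Twist1 and Tbx18 were listed at 0 in all 35 libraries and Prrx1 in 30. Of the Schwann precursor and glial list, none was in the count table, and Mbp fell (-0.75 ± 0.124 in total lysate, -0.88 ± 0.15 in nuclei and -0.74 ± 0.122 in cytoplasm). Of the 4 genes of that list tested in nuclei, 1 rose and 1, Mbp, fell, and in total lysate and cytoplasm Mbp was the 1 gene called. Its summed RPKM was 10.2 to 11.2 in control and 8.89 to 11.6 in knockdown total lysate, 19.2 to 31.2 and 38.2 to 48.0 in nuclei, and 6.08 to 8.03 and 4.71 to 5.88 in cytoplasm, and Sox10 was listed at 0 in 24 libraries and Foxd3 in all. The cholinergic list's sum, nearly all Ache, was 17.8 to 28.2 in control and 8.40 to 17.5 in knockdown total lysate. The part of these markers in the changes of Isl1, Mycn and Th was not tested.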

How the data were processed

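The deposited count table holds the authors' whole-number read counts per gene, and the deposited RPKM table their length- and depth-scaled values. The submitters' processing notes name Salmon 0.14.1, DESeq2 and mm10, and no source used here states the length basis of RPKM. Across 7838 genes with counts above 200, 100.0% of count to RPKM ratios fitted 1 factor per gene and 1 per library within 1%. The log2 nuclear to cytoplasmic ratios quoted from the authors' deposited table were copied. 1 RPKM column that matches no sample in the labels was not used; its name reads as a cytoplasmic pEx5 control, the group that has 1 library here.

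Counts were tested with edgeR 4.0.16 (quasi-likelihood test, TMM scaling, filterByExpr, which removed 0 to 2 genes) in R 4.3.3, with each fraction fitted alone and nuclei with cytoplasm for ratios. RPKM was tested with limma 3.58.1 on log2(RPKM + 0.1) for genes at 0.1 or more in 2 libraries, so folds of low genes are understated. P-values were adjusted by Benjamini-Hochberg over all genes, threshold 0.05. DESeq2 1.42.0 was an alternative. The main ratio fit did not pair nuclei with cytoplasm of the same line, condition and replicate number. In 4 of 5 such pairs the deviations from group means had r over 0.1 (range -0.09 to 0.50). Same-numbered libraries deviated together in total lysate (r 0.35 to 0.79, 15 of 15 pairs over 0.1) and nuclei (0.52 to 0.72, 15 of 15), not in all pairs of cytoplasm (7 of 10), so blocked values are given for the former where they change a call. Replicates are labelled biological, and p-values measure the spread between these samples.

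The members and lists were chosen with earlier results of these data known. All 8 members are named in the knockdown comparisons. In the other comparisons the members tested are counted, and values are given for some of them. From each list up to 3 called genes with the largest change per contrast are named, and a few more chosen after their values were seen. The 3 genes most alike by r are named for each member tested on counts. Some genes of the lists are counted but their own values are not reported here. The RPKM tests of rescue against control, isoform and line were added after seeing the data. Promoters are RefSeq's, on GRCm38.p6.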

Additional observations from a re-analysis of the deposited data

How the results depend on the processing

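The calls of members were recomputed under other scalings, filters, pseudocounts and tools, with a replicate block and without each library in turn; no direction reversed among the genes called under any setting. Isl1 kept its knockdown and its rescue against control calls under every setting and without each library. For genes tested on counts the replicate block changed the number of members called from 0 to 1 in several contrasts. These were knockdown, rescue against control and line difference in total lysate, knockdown and rescue in nuclei, and rescue against control in cytoplasm. The number changed from 0 to 2 in rescue against control and line difference in nuclei. On RPKM it changed from 1 to 2 in rescue against control in nuclei and cytoplasm. Hand1 in knockdown and Mycn in the line difference, both in nuclei and on RPKM, also passed with the block. In cytoplasm same-numbered libraries deviated together less evenly (r 0.06 to 0.65, 7 of 10 pairs over 0.1). There the block gave Hand2 -0.19 (edgeR, adjusted p = 0.037) and Mycn -0.95 (limma, adjusted p = 0.015) in rescue against control. Fitting all 35 libraries together called 1 member in knockdown (Gata2, adjusted p = 0.017) and 1 in rescue against control (Phox2a, adjusted p = 0.013) in nuclei. DESeq2 called 1 in the line difference in total lysate (Phox2a, adjusted p = 0.034) and 1 in rescue against control in cytoplasm (Hand2, adjusted p = 0.043). Scaling by library totals alone left 0 in knockdown in cytoplasm, and no filter on low RPKM left 1 in rescue against control in total lysate and lost Th in cytoplasm (adjusted p = 0.061). The causes were not tested. Without 1 library in turn, members called on counts ranged from 0 to 1 in knockdown in each fraction and in rescue against control in nuclei, and from 1 to 2 in nucleus against cytoplasm (Gata2 joined without the nuclear pEx5 control replicate 1). On RPKM they ranged from 2 to 3 in knockdown in total lysate and cytoplasm, 1 to 2 in knockdown in nuclei, rescue against control in total lysate and line difference in cytoplasm, and 0 to 1 in line difference in nuclei. The block raised all genes called on counts from 2903 to 5123 for knockdown in nuclei, from 1 to 632 for rescue in nuclei, from 2 to 170 in total lysate and from 97 to 1335 for the line difference in total lysate. Low RPKM limits Th and Hand1.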
